A study of Zea mays with 16 samples.

Results

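The 200 probes described here were those whose signals differed most among samples of 1 line and 1 anther length, while their mean hardly moved between the 2 lengths. They were chosen by measured values: of 42034 maize probes on the array, 28295 were well above background in all 16 samples, 16007 of these were neither among the 200 brightest nor changed by 0.5 or more (log2) between 1.0 mm and 2.0 mm anthers, and the 200 with the largest pooled standard deviation (SD) within the 4 groups were kept. The SD, the spread among samples and the small stage difference of these members are therefore descriptions of the choice, and no test was made on them.

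Anthers were dissected from field-grown maize (Zea mays) carrying the Mutator transposon system, at 1.0 mm (before meiosis) and at 2.0 mm (during meiosis). Mu active plants kept an active, high-copy Mutator system. Mu killer plants carried Mu killer, a rearranged MuDR element that silences Mutator, and were siblings of the Mu active plants from the same segregating ears, so both lines shared the high-copy Mu background. Each of the 4 groups (Mu killer and Mu active at each length) had 4 samples, each made from a pool of anthers, and every one of 8 two-colour arrays held 1 Mu killer and 1 Mu active sample of the same length. In the labels a single line is named for both colours of each array, although the study hybridised one line against the other. Here the Cy3 sample keeps the line of its label and the Cy5 sample is given the other line. The sources do not settle this choice, and the opposite one would turn the direction of every line comparison and leave its size. A replicate number is that of an array in the scanner files, so 2 samples of the same length and number were hybridised together. All 4 arrays of a length were on 1 slide, so slide and stage cannot be told apart.

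The table of normalized intensities that the authors deposited numbers the replicates differently. Each of its 16 columns followed a scanner sample of its own group best (r between 0.84 and 0.90 across probes within a length), but in no case the one of the same label (r between -0.42 and 0.11): replicates 1 and 4, and 2 and 3, were exchanged. In all 16 the closest scanner sample also had the other dye. Which order and colour are right was not settled, and neither changes which samples form a group.

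MuDR encodes the transposase of the Mutator family, and Mu elements move into and near genes. Maize stocks differ from each other in sequence and in gene content, and a plant from a segregating ear holds its own combination of parental alleles. An array probe reports the transcripts whose sequence pairs with it, so its signal can depend on the allele as well as on the amount of RNA. In RNA from pooled anthers, fewer cells of a type and less RNA per cell cannot be told apart.

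Across the samples, 32697 to 37898 probes were well above background, and no spot of a member was saturated. Of the 200 members, 160 carried a TC (tentative consensus) transcript identifier and 40 another expressed-sequence or assembly identifier. The files describe none of them, and no member's identifier was found in the maize gene table (4 of all 42034 probes were), so members are named by identifier, their functions are not given, and the anther label could not be set against marker genes. Levels are log2 signals minus the median of that sample, so 0 is the middle of the probes well above background.

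The members spanned the range of brightness. Their mean levels ran from -3.72 to 5.93 with a median of 0.23, against a median of -0.06 in the other 15807 probes of the pool. Their pooled SD ran from 1.34 to 4.42 with a median of 1.65, while the other probes of the pool had a median of 0.42. Just inside the threshold lay TC305659 (SD 1.339) and DR811989 (SD 1.338), and just outside it TC300011 (SD 1.337) and TC313538 (SD 1.333). Nothing separated the last members from the first probes left out.

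The largest SD, 4.42, belonged to TC309848 (probe A_92_P029791). At 1.0 mm its levels were -2.86, -2.79, -1.06 and 5.09 in Mu killer replicates 1 to 4, against -3.12, 4.27, 4.25 and -2.24 in Mu active. At 2.0 mm the Mu killer samples stood at -2.27, 5.74, -3.997 and -3.06 and the Mu active samples at 5.43, 5.82, -3.79 and -3.18. Every sample was either at 4.25 or above or at -1.06 or below, both states occurred in each group, and the empty interval between them was 5.31 wide, or 39.8-fold. The 6 high samples were 3 of each length, 2 of Mu killer and 4 of Mu active.

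DN219901 (A_92_P033960, SD 3.94) had 10 high samples between 2.597 and 4.38 and 6 low samples between -5.80 and -3.11. Low were Mu killer replicates 1 and 2 and Mu active replicate 4 at 1.0 mm, and Mu killer replicate 4 and Mu active replicates 3 and 4 at 2.0 mm. TC302842 (A_92_P025237, SD 3.57) had the widest interval of all members, 7.29 or 156-fold. It stood between 4.28 and 5.65 in 13 samples, and at -3.07 in Mu killer 1.0 mm replicate 2, -3.00 in Mu active 1.0 mm replicate 3 and -3.17 in Mu active 2.0 mm replicate 2. Within each state the levels of TC302842 differed by far less than the step between the states.

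The next 5 by SD showed the same form. TC293826 (A_92_P007115) was high in 8 samples and low in 8, TC292330 (A_92_P020784) low in 3, DT652998 (A_92_P014022) low in 6, TC311522 (A_92_P011077) low in 5 and TC312642 (A_92_P000527) low in 9. In all 8 of these members the low state was still well above background, as the choice required of every sample.

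**Figure D1:**
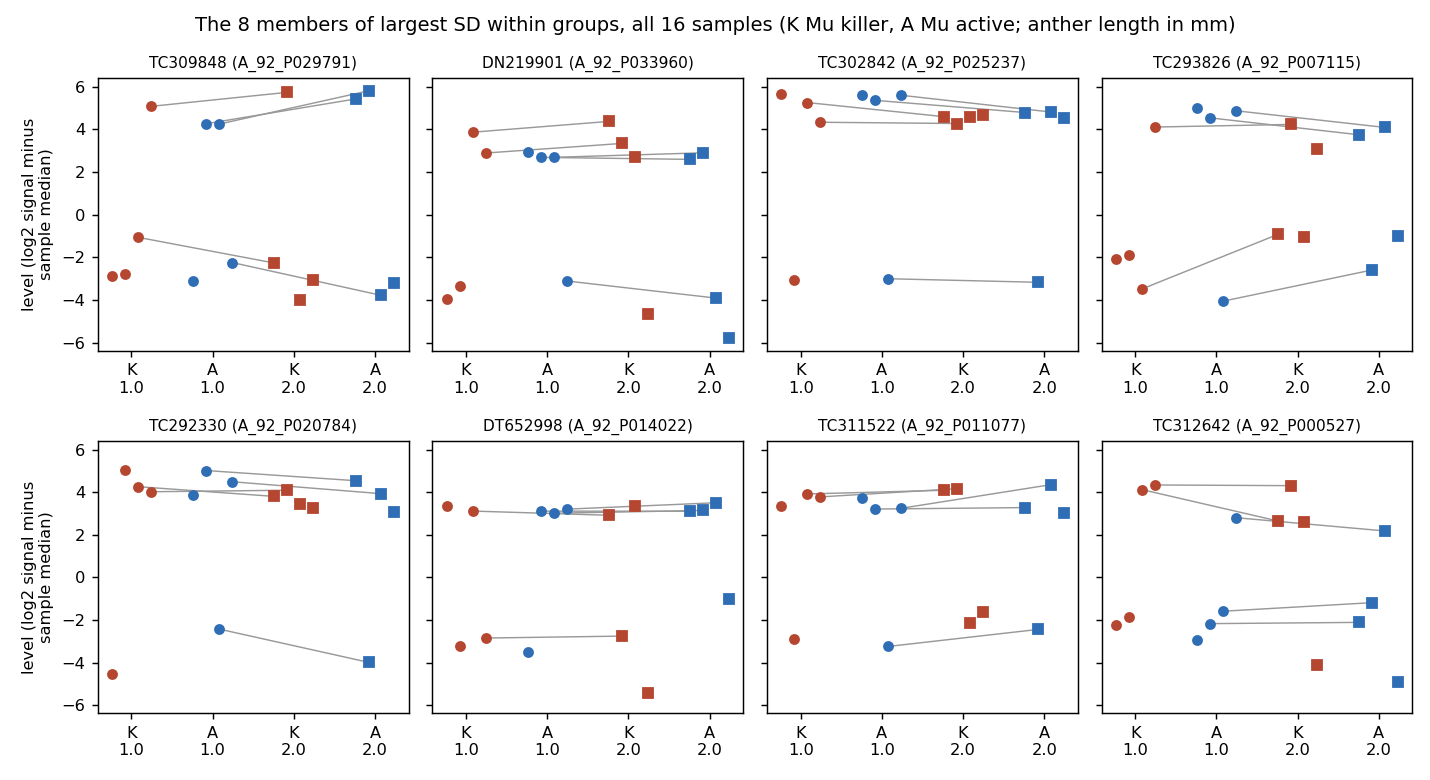
Levels (log2 signal minus sample median) of the 8 members of largest SD in all 16 samples, by line (K Mu killer, red; A Mu active, blue) and anther length in mm; within a group the points stand in the order of replicates 1 to 4, and grey lines join the 5 pairs of a 1.0 mm and a 2.0 mm sample described in the text. The levels of each member fall into a high and a low state, and each grey line stays within 1 state.

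To count such members, the 16 levels of each probe were put in order and the largest step between neighbours was taken. A member with a step of at least 2 (log2) is called two-level here, a value that was set after the levels were seen. Of the 200 members, 81 (40.5%) were two-level, against 33 of the other 15807 probes of the pool (0.209%) and 362 of all 28295 probes well above background (1.28%). A large SD makes a large step likely, so these shares describe the choice. In 60 of the 81 the step was wider than the whole range of levels on either side of it, and 41 had a step of at least 3.

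The number of samples above the step varied from 1 to 15. In 33 of the 81 members 12 to 15 samples were high, in 37 members 5 to 11, and in 11 members 1 to 3. Both states occurred at both lengths in 67 members, and the number of high samples differed by at most 1 between the lengths in 74. In 52 members both lines held both states, and in 29 members 1 line had a single state. More Mu active than Mu killer samples were high in 38 members, more Mu killer samples in 29, and the numbers were equal in 14.

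The states of the 81 members were compared between samples. A pair of samples of the same length lay on the same side of the step in 54.3% to 70.4% of the members where they shared an array (8 pairs, median 60.5%) and in 45.7% to 72.8% where they did not (48 pairs, median 60.5%). Of the 64 pairs of a 1.0 mm and a 2.0 mm sample, 59 lay between 45.7% and 81.5% with a median of 60.5%. The other 5 pairs stood between 95.1% and 98.8%.

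Those 5 pairs were Mu active 1.0 mm replicate 3 with 2.0 mm replicate 2 (80 of 81 members on the same side, 98.8%), Mu killer 1.0 mm replicate 3 with 2.0 mm replicate 1 (80 of 81, 98.8%), Mu active 1.0 mm replicate 4 with 2.0 mm replicate 3 (79 of 81, 97.5%), Mu active 1.0 mm replicate 2 with 2.0 mm replicate 1 (78 of 81, 96.3%) and Mu killer 1.0 mm replicate 4 with 2.0 mm replicate 2 (77 of 81, 95.1%). Over the 41 members with a step of at least 3, both samples of each of the 5 pairs lay on the same side in all 41. No pair joined samples of the same replicate number, and 3 of the 5 joined samples of different dyes. Every pair joined samples of 1 line as the lines are given here, whereas by the line in the labels 3 of the 5 pairs would join a Mu killer and a Mu active sample. The labels do not say whether any plant gave anthers of both lengths, and short codes in them are not explained as plants.

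The 5 pairs were found on the members, so they were examined again on the 281 two-level probes among the 28295 that are not members. These had passed the same background filter; 33 of them were in the pool and ranked by the same SD, and the rest were left out by the limits on brightness or stage difference. Of the 281, 78 had exactly the states of a member in all 16 samples. The 281 probes therefore partly repeat the members in the same samples and are no independent check. There the 5 pairs lay on the same side in 79.4% to 87.2% of the probes, and the other 59 pairs across lengths in 46.3% to 75.8%. In the 33 of the pool, the 5 pairs ran from 93.9% to 100% and the other 59 from 60.6% to 100%. The pair next in order on the members, Mu killer 1.0 mm replicate 1 with Mu active 2.0 mm replicate 4 (81.5%), reached 48.8% on the 281 probes.

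**Figure D2:**
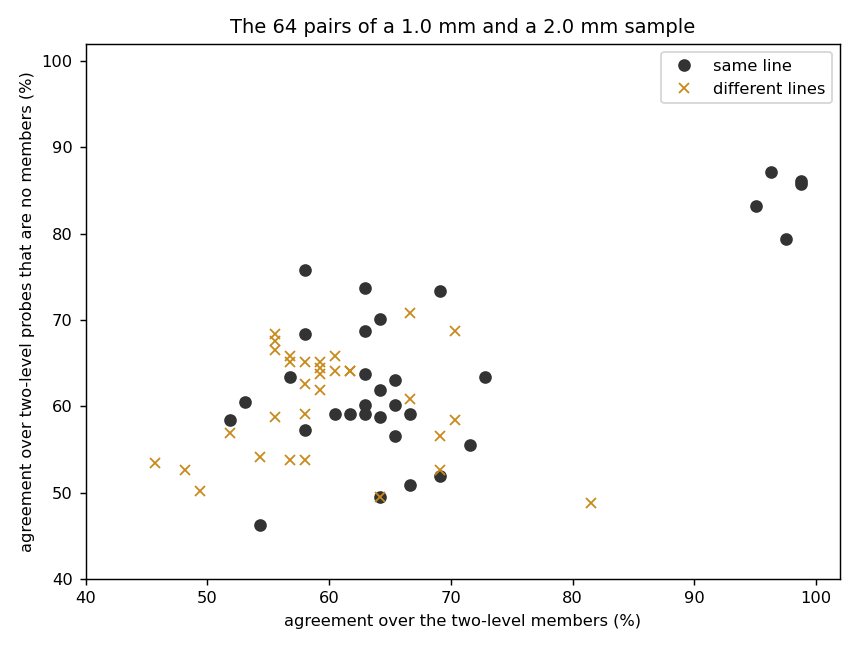
Percentage of probes with both samples on the same side of the step, over the 81 two-level members (x axis) and over 281 two-level probes that are not members (y axis), for each of the 64 pairs of a 1.0 mm and a 2.0 mm sample; circles are pairs of 1 line and crosses pairs of different lines. The 5 pairs at the upper right, at 95.1% to 98.8% and 79.4% to 87.2%, stand apart from the other 59 on both axes. Of the 281 probes, 78 had exactly the states of a member in every sample.

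The 119 members that were not two-level also followed these pairs. Deviations from the group means correlated across the 119 members with r between 0.35 and 0.76 in the 5 pairs (median 0.61) and between -0.49 and 0.33 in the other 59 pairs across lengths (median -0.06). Over all 200 members the 5 pairs had r between 0.59 and 0.86. Over the 15807 other probes of the pool they had r between 0.03 and 0.41, within the range of the other 59 pairs (-0.43 to 0.40) in all but 1 case. These are correlations across probes measured in the same samples, which are not independent replicates. Same-numbered samples of a line, in contrast, lay on the same side in 51.9% to 72.8% of the two-level members, with r between -0.44 and 0.20 over all members (8 pairs).

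Of the 81 two-level members, 72 had both samples of all 5 pairs on the same side. The 9 exceptions included TC295172 and TC313294, which had the same states. TC295172 (A_92_P012299) stood at 2.94 in Mu killer 2.0 mm replicate 2 and 2.86 in Mu active 2.0 mm replicate 1, and between -2.30 and 0.67 in the other 14 samples. TC313294 (A_92_P023068) stood at 7.24 and 7.30 in the same 2 samples and between 2.28 and 5.07 elsewhere. The 1.0 mm partners of these 2 samples were low for both transcripts, so here the 2 lengths of a pair differed. The others, each apart in 1 pair, were TC298905, TC308635, CO533491, TC303878, TC290282, TC307608 and TC289360.

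**Figure D3:**
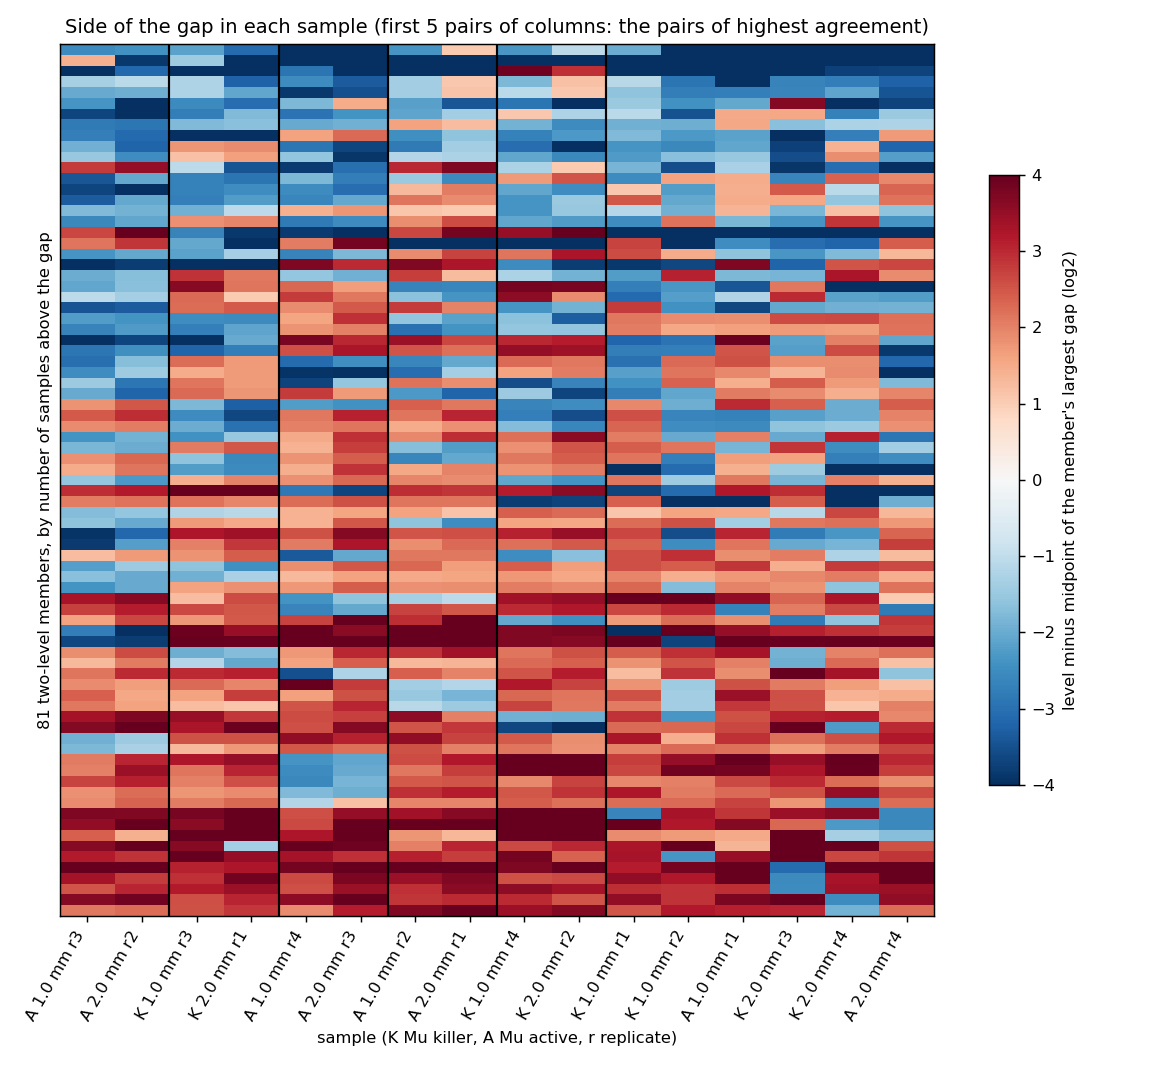
Level of each of the 81 two-level members (rows) in the 16 samples (columns), as log2 difference from the midpoint of that member's largest step (red above, blue below; colours saturate at 4). The first 10 columns are the 5 pairs of a 1.0 mm and a 2.0 mm sample, set off by black lines, and the colours match within a pair in nearly every row; the last 6 columns are the samples without such a partner.

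Several members shared their states in every sample. The 81 members showed 60 different patterns, of which 17 were shared by 2 to 4 members (38 members in all), and 78 further two-level probes outside the members had the pattern of a member. CB885503, TC294877, TC281116 and TC284813 were low in exactly Mu active 1.0 mm replicate 4 and Mu active 2.0 mm replicate 3, which form 1 of the 5 pairs. CB885503 stood at -3.26 and -2.99 in these and between 1.18 and 3.85 in the other 14. TC281116 stood at -0.10 and 0.60 there and between 4.34 and 5.59 elsewhere, and TC284813 at -3.76 and -3.95 and between -0.21 and 1.54.

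TC299118, CF635257 and TC314416 were low in Mu killer 2.0 mm replicate 3 alone. Their levels there were -3.22, -4.80 and -2.59, and the steps to the next sample were 6.19, 5.07 and 5.04 (72.8-fold, 33.6-fold and 32.8-fold). Replicate 3 of Mu killer at 2.0 mm was 1 of the 6 samples with no close partner at the other length. TC313319, TC284522 and TC290858 were low in 3 samples, Mu killer and Mu active 1.0 mm replicate 2 and Mu active 2.0 mm replicate 1. For TC313319 the 3 low levels were -4.24, -4.22 and -3.98, and the remaining samples ran from -1.64 to 1.48.

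Other shared patterns joined 2 members. TC293826 and TC291182 were high in the same 8 samples, TC311522 and TC301255 in the same 11, TC312642 and TC306586 in the same 7, and TC293427 and TC300139 in the same 6. TC294914 and TC296218 were low in Mu active 1.0 mm replicate 3 (-5.37 and -4.39) and Mu active 2.0 mm replicate 2 (-4.89 and -3.88), again 1 of the 5 pairs. TC310971 and AI833508 were high in 3 Mu killer samples, 1.0 mm replicate 3 and 2.0 mm replicates 1 and 4. For TC310971 these stood at 5.80, 5.93 and 5.41 and the rest between -0.12 and 2.64.

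The probes most like the 3 members of largest SD over all 16 levels were found among the 28295. DN214963 (r = 0.91) and TC310192 (r = 0.89) were most like TC309848, TC314313 (r = 0.87) and CF384607 (r = 0.85) most like DN219901, and BM500926 (r = 0.94) and TC294355 (r = 0.94) most like TC302842. TC310192, TC314313 and BM500926 are members, and the other 3 are not. These correlations over 16 samples are descriptions, since the samples lie in 2 separate states.

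A pattern and its mirror image divided the samples nearly by line. CA398577 and TC309926 were high in 8 samples, and TC314063 and TC300191 were high in exactly the other 8. In the 14 samples of the 7 arrays other than 1.0 mm replicate 1, CA398577 stood between 3.44 and 4.01 in Mu killer and between -1.40 and 0.02 in Mu active. On the array 1.0 mm replicate 1 it stood at -1.24 in the sample labelled Mu killer and at 4.27 in the sample given as Mu active, the reverse of the other 7 arrays.

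The other 3 members were reversed on the same array. TC314063 stood between -4.25 and -2.61 in the other 7 Mu killer samples and between 1.36 and 2.45 in the other 7 Mu active samples, but at 1.97 and -3.32 in the Mu killer and Mu active samples of 1.0 mm replicate 1. TC309926 stood at -1.25 and 2.82 there, against 2.28 to 3.07 in Mu killer and -4.37 to -0.46 in Mu active elsewhere. TC300191 stood at 5.39 and 0.51, against 0.08 to 1.58 in Mu killer and 4.55 to 5.21 in Mu active.

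Among all 28295 probes, 9 divided the 14 samples of the other arrays by line with at least 1 (log2) between the lines, and on the array 1.0 mm replicate 1 the difference ran the reverse way by at least 1 in 8 of the 9. With any other single array left out, 1 probe divided the remaining 14 samples by line, and it ran the same way on the array left out. For these 4 members the array 1.0 mm replicate 1 therefore went against its line assignment. The choice by a large SD within groups favours line-divided probes that are reversed on 1 array, so the 4 members describe the choice. The count of 9 over all 28295 probes did not use that SD, although it includes the 4 members. The comparisons of lines that follow give their main values with and without the array 1.0 mm replicate 1. Neither sample of that array belongs to the 5 pairs.

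**Figure D4:**
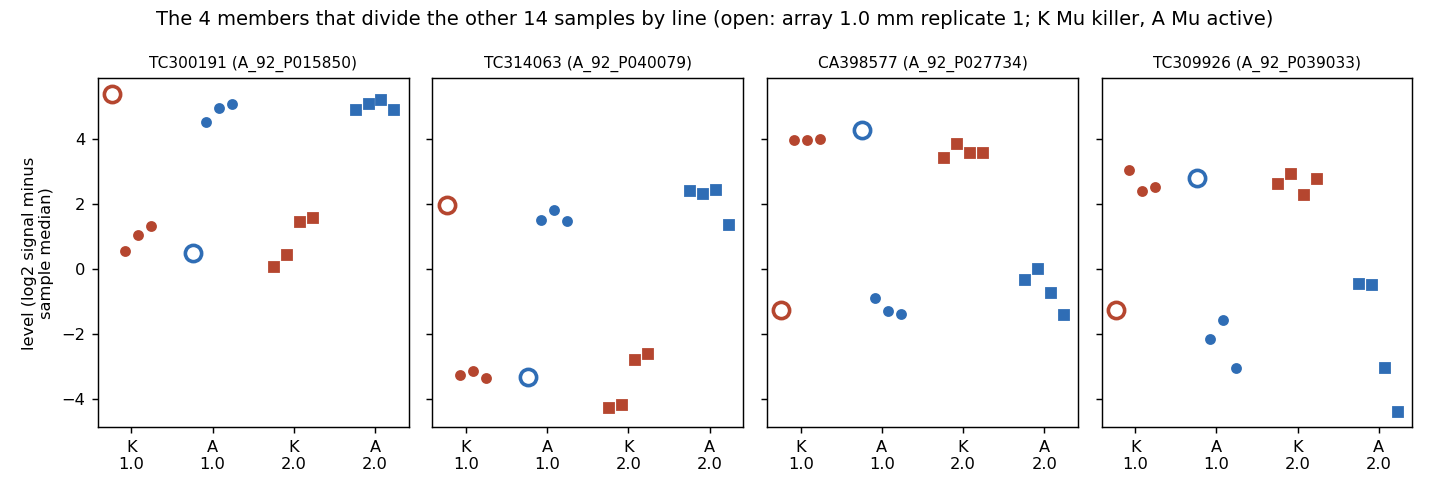
Levels (log2 signal minus sample median) of TC300191, TC314063, CA398577 and TC309926 in all 16 samples, by line (K Mu killer, red; A Mu active, blue) and anther length in mm; open symbols are the 2 samples of the array 1.0 mm replicate 1. In the filled symbols the lines do not overlap, and the open symbols of each panel lie in the other line's range or just above it.

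Some members had other probes on the array. A second probe of the same transcript identifier was not used to choose the member, apart from TC293427, the one identifier with 2 member probes. Of 199 identifiers, 23 had another probe and 22 had exactly 1. Of these 22 other probes, 6 had a pooled SD at or above the lowest of the members and 9 had an SD under 0.6. Among the 6, that of TC293427 is itself a member, so its SD followed from the choice. The rest of the 6 were well above background in only 8 to 14 of the 16 samples.

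For TC309848 the other probe (A_92_P036468) followed the member in 16 of 16 samples. It stood at 3.07 to 4.37 in the 6 samples where the member was high, and between -5.94 and -2.92 in the other 10. It was not a member because it was well above background in only 10 samples. The 2 probes of TC293427 (A_92_P029001, SD 2.71, and A_92_P029363, SD 2.26) placed the same 6 samples above their largest steps: the first stood between 8.05 and 9.44 in these and between 1.75 and 5.91 in the others, and the second between -0.11 and 1.73 and between -4.26 and -1.30. The other probe of TC295329 (A_92_P007608) was likewise on the same side in 16 of 16, with 5 high samples between -2.33 and -0.93 and the rest between -5.79 and -4.23. The other probes of TC309187 and TC280775 were on the same side in 16 of 16 too, with smaller SDs of 0.80 and 0.46. For TC280775 the largest step of the other probe was only 0.34, and it set apart Mu killer 2.0 mm replicate 3 alone (-3.24). The 16 of 16 for TC280775 thus means only that both probes had the same lowest sample. That of TC309187 was well above background in only 2 samples and that of TC295329 in 8, so many of their levels lie near the floor of measurement.

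Other second probes did not split the samples as the member did, or not by a step of that size. Those of TC283733 (SD 2.72), TC289201 (SD 2.02) and TC310574 (SD 1.51) varied as widely as members. They were well above background in 12, 14 and 8 samples. Cut at each probe's own largest step, they lay on the member's side in 8, 10 and 4 of 16 samples. For TC283733 the largest steps of member and other probe were 2.79 and 2.56. The member probes of TC289201 (largest step 1.08) and TC310574 (1.21) were not two-level, so different cuts alone can give such counts. Agreement of their levels was not examined. For CA398577 the other probe (A_92_P018365) had an SD of 0.86, a largest step of 0.42 and 13 of 16 samples on the member's side. At 1.0 mm it stood between -2.30 and -2.22 in Mu killer replicates 2 to 4 and between -4.04 and -3.27 in those of Mu active. On 1.0 mm replicate 1 it stood at -2.85 (Mu killer) and -1.28 (Mu active). At 2.0 mm the lines overlapped, with -2.33 to -0.91 in Mu killer and -3.85 to -1.88 in Mu active. For TC314063 the other probe (A_92_P035878) had an SD of 0.60 and ran from -3.40 to -0.86, with 6 of 16 samples on the member's side. For TC311219, whose member probe (A_92_P041877) ran from -3.82 to 0.72, the other probe (A_92_P035011) ran from -0.97 to 0.60. For CF637421 the member ran from -2.40 to 2.10 and the other probe (A_92_P021829) from -0.98 to -0.23, a far narrower range. The remaining identifier, MAGI4_37022, had 12 other probes, 8 of them well above background in all 16 samples with SDs between 0.30 and 0.67, against 1.48 in its member probe.

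**Figure D5:**
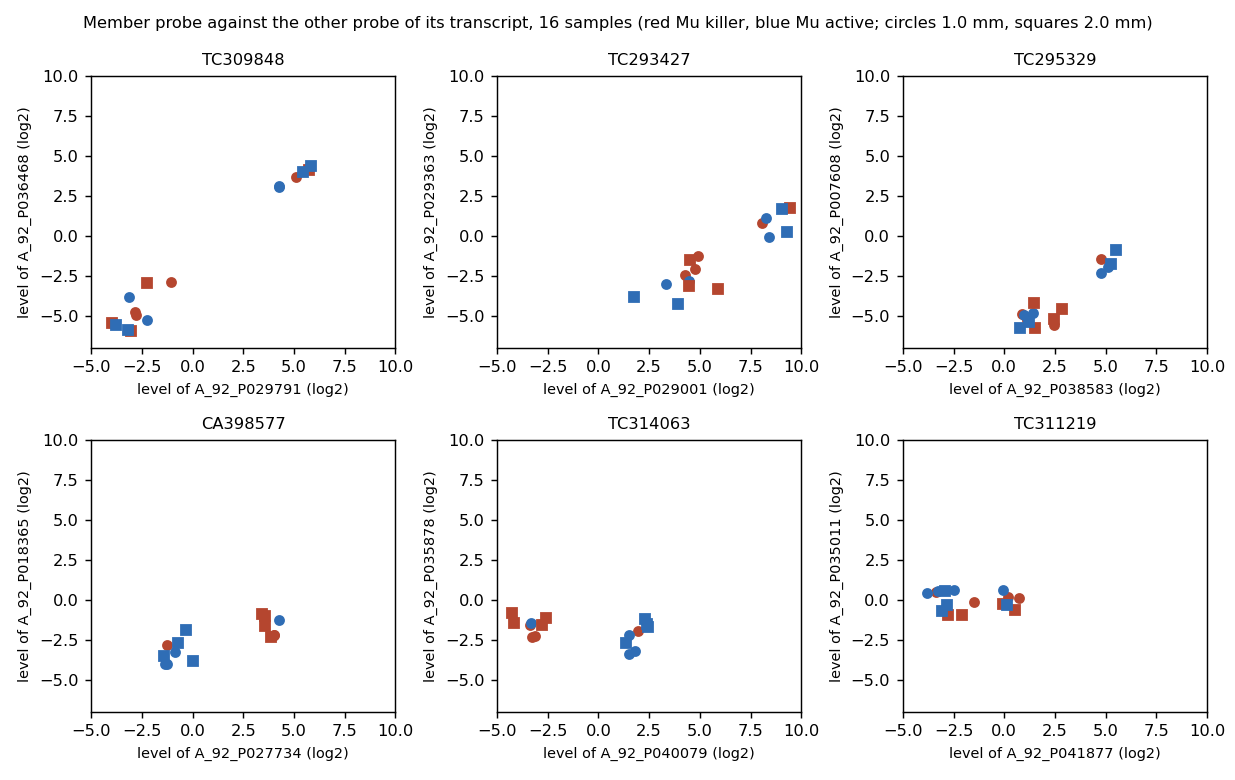
Level of a member probe (x axis, log2) against the other probe of its transcript identifier (y axis, log2) in the 16 samples, for 6 transcripts (red Mu killer, blue Mu active; circles 1.0 mm, squares 2.0 mm). In the upper row both probes split the samples the same way; in the lower row the steps of the member probes of CA398577, TC314063 and TC311219 are not matched by steps of that size in the other probe.

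The spread within groups was split, for each member, into a part that the 2 samples of an array shared (6 of 12 degrees of freedom), a part that followed the dye within a length (2 of 12) and the rest (4 of 12). The medians over the members were 60.1%, 8.87% and 23.2%. In the other probes of the pool they were 59.5%, 12.8% and 21.2%. By their degrees of freedom alone the parts would hold 50%, 16.7% and 33.3% on average. These are means and the values above are medians over probes, so they cannot be compared directly. The array held more than 50% of the spread in 141 members (70.5%, against 65.7% of the other probes of the pool), the dye in 6 (3% against 4.49%) and the rest in 16 (8% against 8.06%), all near the shares in the pool.

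The members with the largest parts differed in form. CD447176 (A_92_P024727) had 99% shared within arrays: its levels at 1.0 mm were -3.36, -5.17, -2.33 and -5.09 in Mu killer replicates 1 to 4, and the Mu active samples of the same arrays stood at -2.66, -4.43, -2.40 and -4.87. TC285775 (98%) stood highest on 1.0 mm replicate 2, at -0.60 (Mu killer) and -0.76 (Mu active), and TC308635 (95%) on 2.0 mm replicate 3, at 7.11 and 4.92. In these members the 2 lines were high or low on the same arrays, and what the arrays had in common was not tested.

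CO449266 (A_92_P030802) had the largest part that followed the dye, 80%. Its 1.0 mm levels were 0.01, 0.03, 0.12 and -2.52 for Mu active, and -2.53, -2.28, -2.95 and -2.61 for Mu killer. Its 2.0 mm levels were -0.19, 0.37, -3.02 and -3.86 for Mu active, and -3.27, -3.67, -0.32 and -0.49 for Mu killer. In all 5 pairs its 2 samples lay in the same state, also in the 3 pairs of different dyes (0.12 and 0.37, -2.95 and -3.27, -2.61 and -3.67). At 2.0 mm all its Cy5 samples were high and all its Cy3 samples low, so dye and sample cannot be told apart there. What set its states was not tested. TC300777 (71%) and TC295339 (55%) came next in the part that followed the dye. In TC296754 (85%), TC293876 (67%) and TC291127 (65%) most of the spread followed neither array nor dye. TC291127 was high in 1 sample of each 1.0 mm array (3.03, 3.02, 2.44 and 2.12) and low in the other (-3.42, -2.19, -3.24 and -2.15). At 2.0 mm both samples of replicate 1 were high (2.66 and 2.21), as was the Mu active sample of replicate 3 (2.68).

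Clustering of the deviations into 4 groups gave sets of 103, 50, 35 and 12 members, with 29, 25, 21 and 6 two-level members. The largest set, with TC298905, TC312590 and TC292202 closest to its mean, was highest in Mu killer 2.0 mm replicate 2 (mean deviation 1.46) and Mu active 2.0 mm replicates 1 (1.46) and 2 (1.15), and lowest in Mu active 2.0 mm replicate 4 (-1.54). TC292202 (A_92_P013324) stood at 4.66, 5.24 and 3.31 in the first 3 and at 0.57 in the last. The second set, with TC293336, TC283733 and TC308635 closest to its mean, was highest in Mu active 1.0 mm replicate 4 (1.32), Mu active 2.0 mm replicate 3 (1.59) and Mu killer 2.0 mm replicate 3 (1.33). The third, with TC294914, TC296218 and TC302842, was lowest in Mu active 1.0 mm replicate 3 (-2.86) and 2.0 mm replicate 2 (-2.53). In the fourth, with CA405248, TC302878 and TC282219 closest to the mean, TC282219 (A_92_P023944) was high at 4.57 to 5.60 in 6 samples and stood between -0.09 and 0.91 in the other 10.

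Whether the members also differed between the lines was asked with the log ratio of Mu killer to Mu active within each array. The linear model (limma) had 1 value per length and a dye term, and was fitted over all 28295 probes. The choice had not used the difference between the lines, but it had taken probes of large spread within the groups, and that spread enters the standard errors (median 0.52 in the members and 0.15 in all probes). The p-values of the members and the counts made from them are therefore not independent of the choice, and the counts are given as descriptions. At 1.0 mm, 19 of 200 members (9.5%) differed at least 1.5-fold with an unadjusted p under 0.05, 7 higher and 12 lower in Mu killer, against 1.59% of all probes. At 2.0 mm 17 members (8.5%) did, 9 higher and 8 lower, against 5.3%. A 1.5-fold difference is reached more easily by probes of large spread. By the p alone the shares were 9.5% of members against 5.34% of all probes at 1.0 mm and 8.5% against 15.4% at 2.0 mm.

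After Benjamini-Hochberg adjustment in the limma fit no member passed 0.05 at either length (lowest adjusted p 0.251 at 1.0 mm and 0.298 at 2.0 mm), while 0.00353% of all probes, 1 probe, passed at each length. The median size of the line difference was 0.43 (log2) in the members and 0.13 in all probes at 1.0 mm, and 0.42 and 0.19 at 2.0 mm. The fit used signals with an offset added and a dye term, so its differences are not those of the levels.

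Without the array 1.0 mm replicate 1, 31 members (15.5%) met the 1.5-fold rule at 1.0 mm, 13 higher and 18 lower in Mu killer, against 3.81% of all probes, and 17 (8.5%) at 2.0 mm, 10 higher and 7 lower, against 5.4%. By the p alone the shares were then 16% of members against 7.98% of all probes at 1.0 mm and 9.5% against 14.8% at 2.0 mm. The median size of the difference became 0.54 in the members and 0.17 in all probes at 1.0 mm, and stayed at 0.42 and 0.19 at 2.0 mm. One of the members divided by line, TC300191, then passed the adjustment, with -3.76 ± 0.17 at 1.0 mm (limma adjusted p 0.00520) and -3.61 ± 0.14 at 2.0 mm (limma adjusted p 0.00238). With that array it stood at -1.61 ± 1.28 and -3.61 ± 1.28 (limma adjusted p 0.803 and 0.311). The array was singled out because it ran against the others in such probes, so the values without it are no independent test. Without the array 2.0 mm replicate 3, 26 members (13%) met the 1.5-fold rule at 2.0 mm, against 16.2% of all probes. With the 16 levels fitted by group and dye, without the array as a replicate block, 12 members (6%) met it at 1.0 mm, against 3.42% of all probes.

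With all 8 arrays the lowest p at 1.0 mm belonged to TC300676 (A_92_P001360). Its levels were -1.98, -1.15, 2.87 and -0.84 for Mu killer, and 2.45, 2.36, 3.18 and 1.96 for Mu active, so replicate 3 of Mu killer lay in the range of Mu active. The fitted difference was -2.16 ± 0.23 (log2, SE), 4.46-fold lower in Mu killer (limma adjusted p 0.251). Its SE came from the fit over all 8 arrays with the dye term. At 1.0 mm Mu killer was in Cy3 on replicates 1 and 2 and in Cy5 on replicates 3 and 4. The dye term can take up a difference between these, so the SE does not show the spread of the 4 ratios. The ratios of the 4 arrays were -3.52, -3.16, -0.30 and -1.66, and without the first, 1.0 mm replicate 1, the difference was -2.06 ± 0.28 (limma adjusted p 0.446). TC283856 (A_92_P006606) stood at 2.47, 2.78, 1.93 and 1.80 for Mu killer, and at -1.15, -1.38, -1.37 and 1.61 for Mu active, where replicate 4 was the one high sample. Its difference was 2.26 ± 0.39 (limma adjusted p 0.798), and 2.41 ± 0.48 without 1.0 mm replicate 1 (limma adjusted p 0.612). If the lines of that array were exchanged, its ratio would turn, and these values cover only leaving it out.

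At 2.0 mm TC295533 (A_92_P003395) had the lowest p. It stood at 2.57, -2.31, -2.66 and -1.46 for Mu killer and at 4.32, 2.80, 4.31 and 3.00 for Mu active, without overlap, and the difference was -2.65 ± 0.47 or 6.29-fold (limma adjusted p 0.298). AI902138 (A_92_P014287) stood at -3.15, -0.19, -2.62 and -0.63 for Mu killer and at 0.51, -0.98, 4.39 and 3.82 for Mu active. The groups overlapped, and the difference was -1.99 ± 0.38 (limma adjusted p 0.298). In the other probe of AI902138 (A_92_P036917, well above background in 14 samples) the lines did not overlap at 2.0 mm. Mu killer stood between -5.555 and -3.36 there, and Mu active between -2.84 and -1.65. At 1.0 mm they overlapped, at -4.30 to -2.59 and -3.27 to -2.40. Without 1.0 mm replicate 1 the member probes of TC295533 and AI902138 kept their differences, with a limma adjusted p of 0.271 for each.

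The change of the line difference from 1.0 to 2.0 mm met the 1.5-fold rule in 2 members, TC300676 and TC295533, against 0.859% of all probes. The fit treats the arrays of the 2 lengths as independent and takes no account of the 5 pairs of samples across lengths, so its standard errors do not cover what the samples of a pair share. None of the 28295 probes passed 0.05 after adjustment (0%); 563 had an unadjusted p under 0.05, and 2 of them were members. The count of members meeting the 1.5-fold rule depended on the array left out. It was 2 without 1.0 mm replicate 1 (TC300676 and MAGI4_37022, against 0.728% of all probes) and 3 without 2.0 mm replicate 1 (0.696%). It was 9 without 1.0 mm replicate 2 (1.45% of all probes), 8 without 1.0 mm replicate 3 (1.57%) and 9 without 1.0 mm replicate 4 (0.99%). It was 14 without 2.0 mm replicate 2 (1.77%), 9 without 2.0 mm replicate 3 (5.25%) and 7 without 2.0 mm replicate 4 (1.4%), where 2 of 200 members are 1% and 14 are 7%.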

How the data were processed

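The authors scanned 8 two-colour oligonucleotide arrays of maize anther RNA and extracted spot values with Agilent Feature Extraction 9.5.3.1, per the file headers. The deposited scanner files hold a mean, a local background and a processed signal intensity per spot and colour, and marks for spots well above background, saturated or non-uniform; they cannot be made into counts, and the number of arrays limits the precision. A deposited table holds the authors' normalized intensity values, whose replicate order differs from that of the scanner files, and was used as an alternative only. Each probe was 1 spot. Levels are log2 of the processed signal of a sample's own colour minus the median over the 28295 probes well above background in all 16 samples.

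The members and lists were chosen with earlier results of these data known. Members were kept by the rule in the report. The text names the 8 of largest SD, those sharing an identifier, the 3 closest to each cluster mean (average linkage, 1 minus Pearson correlation, 4 clusters), the 3 with the largest part of each kind of spread, the 2 of lowest p per length, those beside the threshold, and the 2 probes most like each of the first 3; members of shared or line-divided patterns, second probes and the exceptions among pairs were named after their values were seen. Pathway and marker lists could not be applied, since no member's identifier was in the gene table. Line differences were fitted with limma 3.58.1 in R 4.3.3 on within-array log ratios, after normexp background correction (offset 50) and loess, control spots given no weight and spots marked as outliers left out (4 spots of members). A difference met the rule at 1.5-fold and an unadjusted p under 0.05, and was counted again at a Benjamini-Hochberg adjusted p under 0.05. The labels call the samples replicates. In the main fit the p-values rest on the spread of the within-array ratios over the 8 arrays of both lengths, after the dye term. They do not measure the spread among the samples of 1 group, and they take no account of the 5 pairs across lengths. Both the split of the spread and the limma fit were tested on simulated data. Replicate numbers did not pair samples across lengths: same-numbered samples of a line had r between -0.44 and 0.20. Python 3.11.15 with numpy 2.4.6, pandas 2.3.3 and scipy 1.17.1 was used elsewhere.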

Additional observations from a re-analysis of the deposited data

Results flagged for a closer look

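In 38 named members the gap between the most extreme sample of a group of 4 and its nearest neighbour was compared with the group's range. It took more of the range than Dixon's critical value for 4 samples at the 95% level in 38 of 152 groups. Over all 200 members it did so in 133 of 800 groups (16.6%), where chance alone gives about 1 in 20; members were chosen for a large spread, which such gaps produce.

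Mu active 1.0 mm replicate 3 was the sample apart, and the lowest, in 8 members: the gap was 0.969 of the range in TC302842, 0.948 in TC293826, 0.923 in TC311522, 0.922 in TC296218, 0.887 in TC293876, 0.883 in TC294914, 0.866 in BM500926 and 0.843 in TC292330. Its close partner, Mu active 2.0 mm replicate 2, was the lowest in TC302842 (0.967) and TC294914 (0.895). Mu active 1.0 mm replicate 4 was the lowest in CO449266 (0.959), DN219901 (0.956) and TC295339 (0.894) and the highest in TC283733 (0.952), TC283856 (0.924), AI902138 (0.864) and TC293336 (0.859). Its partner, Mu active 2.0 mm replicate 3, was the highest in TC308635 (0.857) and TC283733 (0.835).

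At 1.0 mm, Mu active replicate 2 was the highest in CA405248 (0.906), TC302878 (0.863) and TC285775 (0.834), and Mu active replicate 1 the lowest in DT652998 (0.972). Mu killer replicate 2 was the lowest in TC311522 (0.920), TC302842 (0.849) and BM500926 (0.846) and the highest in TC285775 (0.854). Mu killer replicate 1 was the lowest in TC292330 (0.892) and the highest in TC293427 (0.832, probe A_92_P029001), and Mu killer replicate 4 the lowest in TC295533 (0.877).

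At 2.0 mm, Mu killer replicate 1 was the highest in TC291127 (0.966), and Mu killer replicate 2 the highest in TC298905 (0.834) and the lowest in TC300676 (0.835). Mu killer replicate 4 was the lowest in TC283733 (0.929) and TC314313 (0.884). Mu active replicate 1 was the highest in TC282219 (0.914), and Mu active replicate 4 the lowest in DT652998 (0.912) and DR811989 (0.840). Named samples fell on all 8 arrays.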

How the results depend on the processing

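Which probes were members depended on the processing. Of the 200, 192 were chosen again with the 75th percentile, 189 with quantile normalization, 186 with the median over all non-control probes (added after seeing the data), 183 with the dye removed, 157 with the Cy5 line as labelled and 140 with the array mean removed. Only 91 were with normexp (offset 50), 92 with the deposited normalized values, 111 among the probes above the median brightness and 72 with no filter on dim probes. With an array left out it was 106 to 142.

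The part of the spread shared within arrays stayed between 56.1% and 63.0% in its 12 alternatives. The dye part was 8.62% to 9.49% under other scalings and values and 11.5% to 15.4% with an array left out. Leaving an array out takes degrees of freedom from the other parts and none from the dye, so these ranges are not alike. With an array left out, 19 to 31 members met the rule between lines at 1.0 mm (9.5% to 15.5%). All probes then ran from 1.56% to 3.81%. At 2.0 mm 13 to 26 members did (6.5% to 13%), against 3.04% to 16.2% of all probes. For the change of the line difference 2 to 14 members did (1% to 7%), against 0.696% to 5.25% of all probes. At an adjusted p under 0.05 there were 0 at either length with all arrays and 1 at each, TC300191, without 1.0 mm replicate 1. Fitting each length alone gave 28 (14%) at each length, against 2.44% of all probes at 1.0 mm and 4.24% at 2.0 mm. With no replicate block there were 12 (6%) at 1.0 mm, against 3.42%, and 13 (6.5%) at 2.0 mm, against 14.7%. The paired and unpaired counts thus differed by over 1.5 times at 1.0 mm only. The scanner's log ratio gave 21 (10.5%) at 1.0 mm, against 4.29%, and 23 (11.5%) at 2.0 mm, against 17.3%. The causes were not tested.

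No function or sequence is known here for the members. Signal over background limits dim probes: a low state can lie near the floor of measurement.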
